A study of Mus musculus with 13 samples.

Results

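Tumours of an NLRX1-overexpressing 4T1 line (4T1OE) were compared with tumours of its transduced control line (4T1OE-CTL), both grown in Nlrx1-/- BALB/c mice. The comparison rested on 4 of the 13 samples of the series, 2 arrays of 4T1OE and 2 of 4T1OE-CTL tumours, chosen by their titles and not by any measured value. 4T1 is a line of mammary cancer cells from a BALB/c mouse and is used as a model of aggressive, metastatic breast cancer. Each mouse had received cells in 1 mammary fat pad, had no other treatment, and gave a flash-frozen tumour, and each array carried RNA pooled from tumours. Every tumour therefore held injected 4T1 cells together with Nlrx1-/- host cells. Neither the number of tumours in a pool nor the time of growth is stated in the labels, and nothing says that the pools came from separate experiments, so the p-values measure the spread between pools. All 4T1OE arrays came from the same transduced line, and so did all 4T1OE-CTL arrays, so an effect of overexpression cannot be told apart from any other difference between these lines. The same lines in WT BALB/c hosts (2 arrays each) served for a test of the difference between hosts, and 3 parental, untransduced tumour arrays (1 from Nlrx1-/- and 2 from WT hosts) entered the same fits and gave the parental levels. A further parental array of Nlrx1-/- hosts was left out, as its own label advises.

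NLRX1 is a member of the NOD-like receptor family that sits at mitochondria. It has been described as a brake on MAVS and interferon signalling, as a partner of the respiratory chain protein UQCRC2 and of the elongation factor TUFM, and as an influence on reactive oxygen species and autophagy. In tumours both promoting and restraining roles have been described for it, depending on the model.

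Values are log2 expression values of Clariom S arrays, 1 per transcript feature, and a difference is 4T1OE minus 4T1OE-CTL on that scale, so that 1 unit is a fold of 2. A feature was called when its limma adjusted p was under 0.05 over all 22206 features tested. Across features, Pearson's r was 0.987 between the 4T1OE arrays and 0.961 between the 4T1OE-CTL arrays, and it lay between 0.948 and 0.975 across the lines, so the 4T1OE-CTL arrays were no more alike than some pairs of different lines. Their values were spread unequally, with a standard deviation within the array of 3.12 and 3.09 in 4T1OE tumours and of 2.91 and 2.78 in 4T1OE-CTL tumours. Lymph node genes were high on replicate 1 of either line, with values given further on. The keratin gene Krt8, an epithelial marker, was at log2 levels of 14.40 and 15.17 in 4T1OE tumours and of 13.48 and 13.41 in 4T1OE-CTL tumours. Epcam, another epithelial marker, was at log2 levels of 7.77 and 9.08 in 4T1OE tumours and of 6.94 and 7.06 in 4T1OE-CTL tumours, whereas it lay at 13.02 in the parental tumours of Nlrx1-/- hosts and at 14.95 and 14.42 in those of WT hosts. The level of Epcam was thus far under the parental level in both transduced lines.

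In Nlrx1-/- hosts 265 features were called between 4T1OE and 4T1OE-CTL tumours, 1.19% of those tested. Of these, 244 were higher in 4T1OE tumours (1.10%) and 21 were lower (0.0946%), and 4611 features (20.8%) had an unadjusted p under 0.05. The features called higher held 224 genes with a symbol and those called lower held 16, and 25 called features had no symbol in the annotation used. The 4T1OE and 4T1OE-CTL arrays overlapped for none of the 265, against 27.2% of all features that did not overlap with 4T1OE higher and 28.3% with 4T1OE lower. Called differences began at 1.21 on the upper side and at -1.25 on the lower side, so no fitted difference of a called feature was under a fold of 2. For 14 of the features called higher both 4T1OE-CTL values lay under the negative control medians of their arrays, and for 4 of those called lower both 4T1OE values did. Among the calls 92.1% were higher in 4T1OE tumours. After quantile normalization 57 features were called and 78.9% of these were higher. No feature was called without either 4T1OE array or without 4T1OE-CTL replicate 2, and 1341 were called without 4T1OE-CTL replicate 1. In a fit that held each array's standard deviation as a covariate 1 feature was called, and it was none of these 265. The sign was the same in every alternative fit that held the feature, which was 264 of the 265 with the dimmest features left out and all 265 otherwise. Where groups do not overlap, leaving out an array cannot turn the sign, and many other fits leave the difference as it was. Only rescaling or a covariate could have turned it, so the kept sign is no test in most of these fits. The calls below are to be read with these counts.

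**Figure D1:**
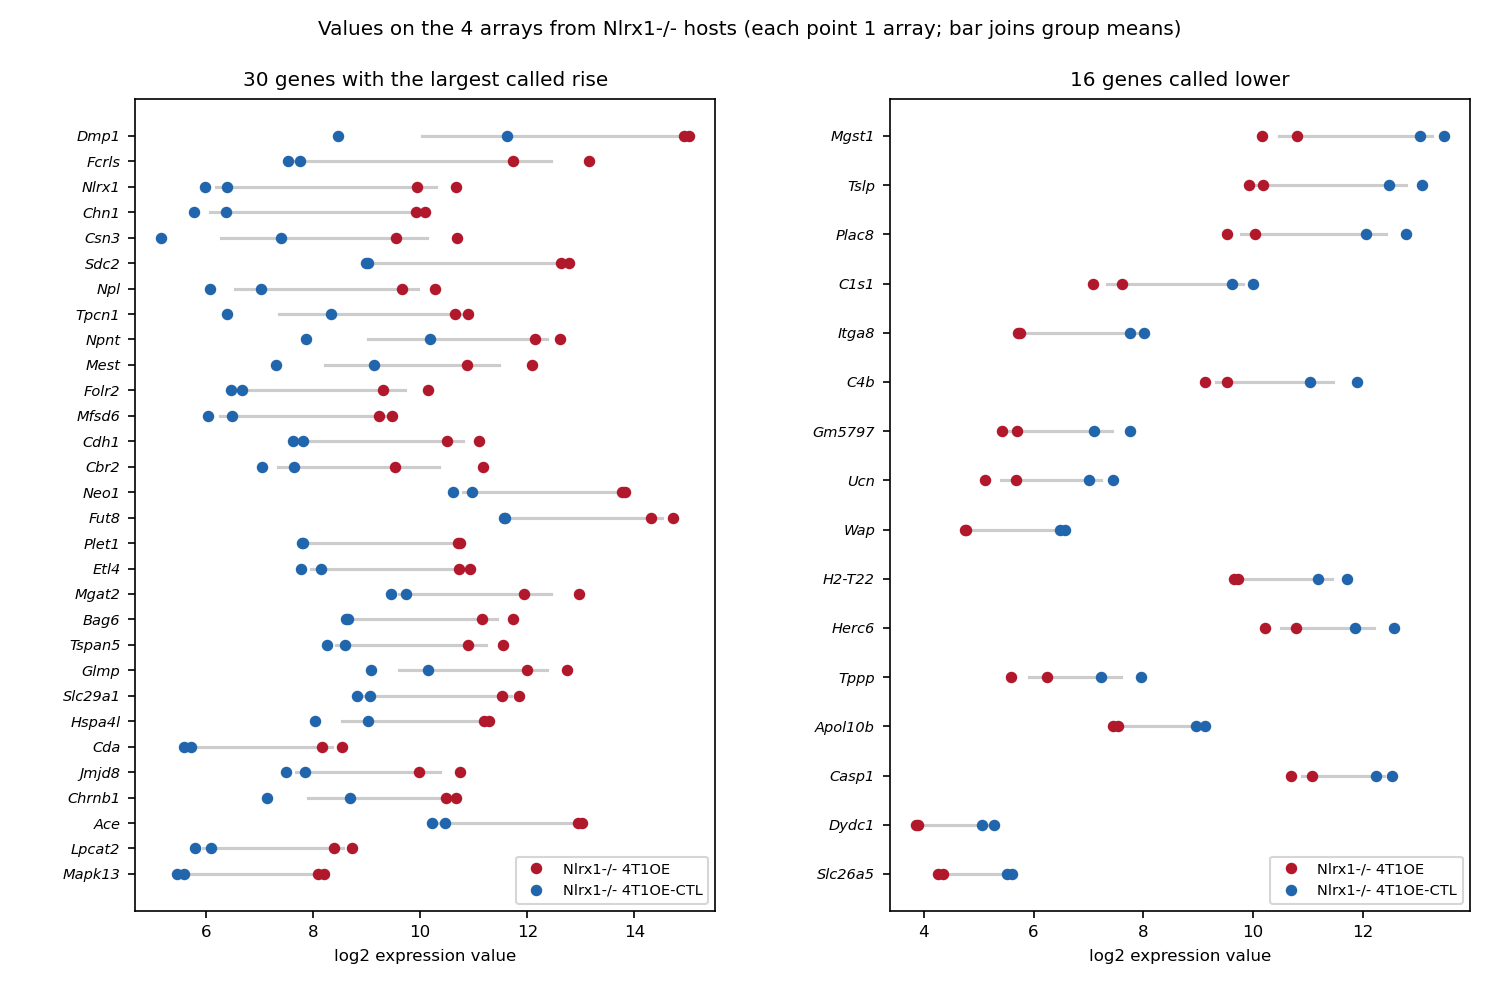
Log2 expression values on the 4 arrays from Nlrx1-/- hosts (x axis), 1 point per array, for the 30 genes with the largest called rise and the 16 genes called lower, with a bar joining the group means. For every gene shown both 4T1OE points (red) lie on the same side of both 4T1OE-CTL points (blue), and the 4T1OE-CTL points of Dmp1, Csn3, Npnt, Tpcn1 and Mest lie far apart.

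Nlrx1 itself was the gene the 4T1OE line was made to overexpress. Its log2 levels were 9.93 and 10.67 in 4T1OE tumours, against 6.39 and 5.99 in 4T1OE-CTL tumours. Both 4T1OE values lay above all other groups but the 4T1OE tumours of WT hosts, which averaged 9.66. The log2 difference in Nlrx1-/- hosts was 4.11 (SE 0.407, limma adjusted p = 0.0141), a fold of 17.3. An exact two-sided permutation test of the 4 arrays gave p = 0.333, the smallest p that 2 arrays against 2 allow. The parental tumours were at log2 levels of 6.61 in Nlrx1-/- hosts and of 6.13 and 7.13 in WT hosts, so the 4T1OE-CTL level was near the parental level. Because 4T1 cells keep an Nlrx1 gene of their own, the 4T1OE-CTL values cannot by themselves check the host's genotype. In WT hosts the 4T1OE-CTL tumours were at log2 levels of 7.06 and 6.93, above those in Nlrx1-/- hosts. The part of host cells in that difference was not tested. The labels do not state the species or the promoter of the construct.

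Of 29 measured genes of NLR, MAVS, STING and inflammasome signalling, 2 were called, Nlrx1 as higher and Casp1 as lower, and the median difference was 0.23, against -0.06 over all features. That median was 0.05 without 4T1OE-CTL replicate 2, 0.60 without 4T1OE-CTL replicate 1 and -0.13 with the standard deviation covariate, so the list had no settled direction. Casp1 encodes the protease that matures interleukin 1 beta and interleukin 18. It was at log2 levels of 11.08 and 10.69 in 4T1OE tumours, against 12.23 and 12.54 in 4T1OE-CTL tumours. Both 4T1OE values lay under the parental values of 11.43 to 11.71, and both 4T1OE-CTL values above them, so parental tumours lay between the lines. The log2 difference was -1.503 (SE 0.279, adjusted p = 0.0410), and it was -1.70 in WT hosts. The measured partners of NLRX1 on this list were not called, and Fastkd5 and Traf3 were not matched to a feature. Mavs, Tufm, Uqcrc2 and Atg16l1 are named here for their role with their values known, and all had a positive difference. At an unadjusted limma p under 0.05, 5 of the 29 genes were higher and 4 lower, Nlrx1 and Casp1 among them. Mavs, the adaptor of cytosolic RNA sensing, had a log2 difference of 1.23 (adjusted p = 0.134). The difference was 0.76 for Tufm (adjusted p = 0.316) and 1.14 for Uqcrc2 (adjusted p = 0.0809). Atg16l1, an autophagy gene whose product works with ATG5 and ATG12, had the log2 difference closest to a call among them, 1.69 (adjusted p = 0.0573), with log2 levels of 8.13 and 7.93 in 4T1OE tumours and of 6.71 and 5.97 in 4T1OE-CTL tumours. Il1b, the interleukin 1 beta gene, had overlapping log2 levels of 12.03 and 11.93 in 4T1OE tumours and of 10.74 and 13.37 in 4T1OE-CTL tumours.

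**Figure D2:**
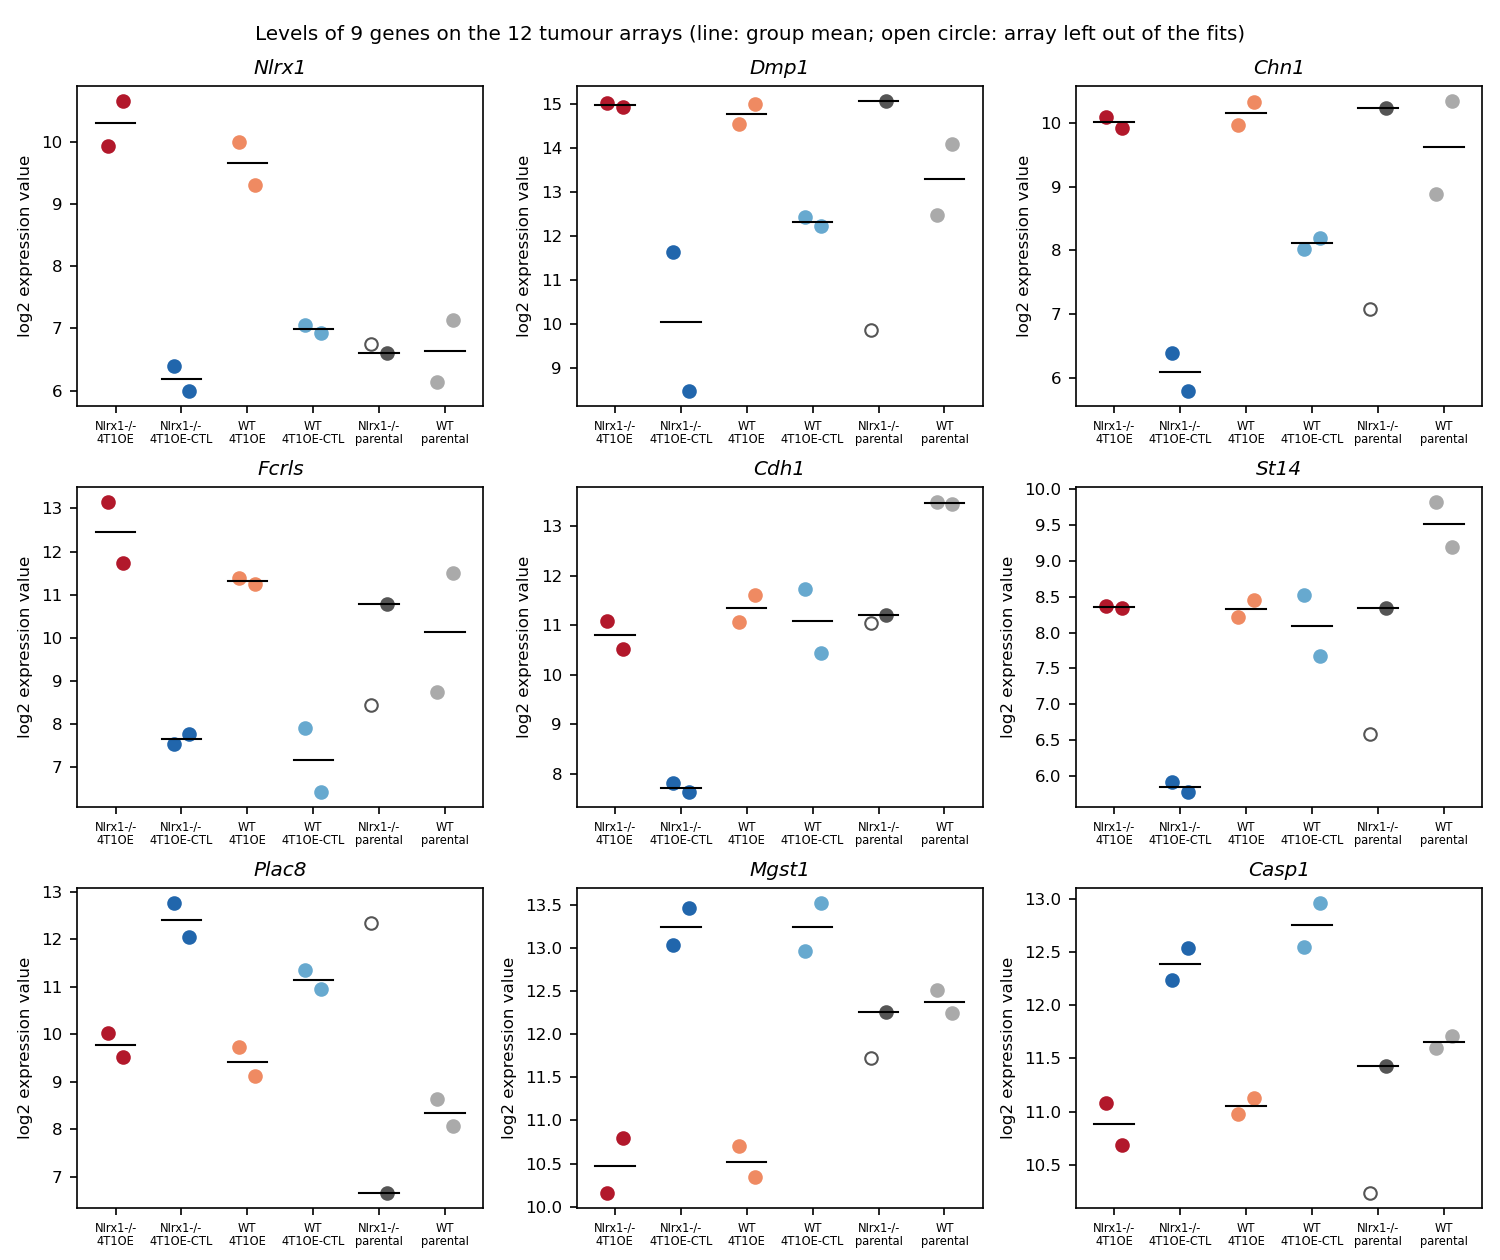
Log2 expression values of 9 genes (y axes) on the 12 tumour arrays by host and line (x axes), 1 point per array, with the group mean as a line and the array left out of the fits as an open circle. Nlrx1 is high in both 4T1OE groups alone, and on the filled points Cdh1 and St14 are low in the 4T1OE-CTL tumours of Nlrx1-/- hosts alone, while Mgst1 and Casp1 are lowest in both 4T1OE groups.

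E-cadherin, a desmosomal cadherin and occludin were higher in the 4T1OE tumours of Nlrx1-/- hosts. Cdh1 encodes E-cadherin, the adhesion protein of adherens junctions. Its log2 levels were 11.09 and 10.51 in 4T1OE tumours, against 7.82 and 7.63 in 4T1OE-CTL tumours. The WT parental tumours were highest, at 13.49 and 13.44. The 4T1OE-CTL values were the lowest of all fitted arrays, while the 4T1OE values lay close to the Nlrx1-/- parental value of 11.20 and to the values of 11.06 and 11.62 in 4T1OE and of 11.73 and 10.44 in 4T1OE-CTL tumours of WT hosts. The log2 difference was 3.08 (SE 0.419, adjusted p = 0.0227), a fold of 8.44. Dsg2, a desmosomal cadherin gene, was at log2 levels of 8.22 and 8.24 in 4T1OE tumours, against 6.07 and 5.93 in 4T1OE-CTL tumours (difference 2.23, adjusted p = 0.0239). Ocln encodes occludin, a membrane protein of tight junctions. It was at log2 levels of 7.17 and 7.63 in 4T1OE tumours, whereas its values of 5.67 and 5.34 in 4T1OE-CTL tumours were under the negative control medians of those arrays, so its difference is given as a bound, at least 1.79 (adjusted p = 0.0291). Of 29 measured adhesion, tight junction and desmosome genes 3 were called, all higher, and the median difference was 0.44, or 0.68 without 4T1OE replicate 1 and 0.25 without 4T1OE replicate 2. The other 26 ranged from lower to higher, and 13 of the 29 had an unadjusted p under 0.05, all of these with 4T1OE higher. Of all 22206 features, 1.10% were called higher and 2925 had an unadjusted limma p under 0.05 with 4T1OE higher. For 12 of the 29 both 4T1OE-CTL arrays were the lowest of the 11 fitted, as they were for 1498 of all 22206 features. The list's median deviation from each gene's median over the fitted arrays was -0.04 and 0.00 on the 4T1OE arrays and -0.55 and -0.65 on the 4T1OE-CTL arrays.

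Membrane serine proteases and their inhibitors went the same way, with 3 of 12 called higher and a median difference of 0.92. St14 encodes matriptase, a protease at the surface of epithelial cells, and Spint1 encodes its inhibitor HAI-1. The log2 levels of St14 were 8.38 and 8.35 in 4T1OE tumours, against 5.92 and 5.77 in 4T1OE-CTL tumours (difference 2.52, SE 0.341, adjusted p = 0.0227). Those of Spint1 were 10.83 and 11.12 in 4T1OE tumours, against 9.51 and 9.32 in 4T1OE-CTL tumours (difference 1.56, SE 0.249, adjusted p = 0.0314). Protease and inhibitor were thus both lowest in the 4T1OE-CTL tumours of Nlrx1-/- hosts among the fitted arrays. Tmprss11e, another membrane protease gene of this family, was at log2 levels of 11.06 and 11.61 in 4T1OE tumours, against 9.40 and 8.54 in 4T1OE-CTL tumours (difference 2.36, SE 0.454, adjusted p = 0.0435). In the fit with the standard deviation covariate the median of this list was 0.08, whereas that of the adhesion list was 0.59.

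Among 12 keratin genes Krt18, a keratin of simple epithelia, was called higher, with log2 levels of 15.45 and 15.90 in 4T1OE tumours, against 14.10 and 13.04 in 4T1OE-CTL tumours (difference 2.10, SE 0.390, adjusted p = 0.0410). The keratin list as a whole had a median difference of -0.32, with 8 of 12 genes negative, but 5 of the 12 lay under the negative control medians on all 4 arrays, and the median was -0.04 after quantile normalization. Transcription and splicing regulators of epithelial cells had 0 of 16 called in limma, and 7 reached an unadjusted p under 0.05, 3 higher and 4 lower. Mesenchymal genes and the factors of epithelial-mesenchymal transition had 0 of 19 called in limma, 3 at an unadjusted p under 0.05, all higher, and a median difference of 0.27. Of the 19, 16 had a positive difference, as had 10283 of all 22206 features. For 11 the lines did not overlap with 4T1OE higher and for 0 with 4T1OE lower, against 27.2% and 28.3% of all features. The median of this list thus had the same sign as that of the adhesion list. Plet1, an epithelial surface protein gene of skin and placenta, was outside these lists and was called higher, with log2 levels of 10.71 and 10.75 in 4T1OE tumours, against 7.82 and 7.79 in 4T1OE-CTL tumours (difference 2.92, SE 0.324, adjusted p = 0.0141).

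The promoter window of Ocln is shown because it holds the E-box letters CAGGTG, searched on both strands, to which repressors of Cdh1 and other junction genes are known to bind. It spans chr13:100552669-100552968 on the minus strand of GRCm38.p6 in RefSeq, around an annotated start, with the match in capitals.
Ocln: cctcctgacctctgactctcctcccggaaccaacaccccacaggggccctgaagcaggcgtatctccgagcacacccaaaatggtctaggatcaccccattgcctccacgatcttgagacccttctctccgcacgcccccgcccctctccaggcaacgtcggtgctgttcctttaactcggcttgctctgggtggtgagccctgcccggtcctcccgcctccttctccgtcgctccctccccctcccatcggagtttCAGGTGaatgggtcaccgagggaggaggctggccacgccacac
The same letters stood in 37 of 176 called-higher genes with a promoter in the table (21.0%), in 4 of 14 called-lower genes (28.6%) and in 3474 of 15691 genes overall (22.1%). The share among the genes called higher was thus near that of all genes.

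Dmp1 had the largest difference of all called features. It encodes dentin matrix acidic phosphoprotein 1, a SIBLING protein of mineralised matrix that binds integrins. Its log2 levels were 15.02 and 14.93 in 4T1OE tumours, against 11.62 and 8.46 in 4T1OE-CTL tumours. The 4T1OE arrays lay close to the Nlrx1-/- parental value of 15.07, while the 4T1OE-CTL arrays lay far under it and far from each other. The WT parental tumours were at 12.47 and 14.09, so parental levels were themselves spread. The log2 difference was 4.93 (SE 0.843, adjusted p = 0.0343), and it was 6.51 without 4T1OE-CTL replicate 1 and 3.35 without 4T1OE-CTL replicate 2. No other of the 14 mineralised matrix genes was called, and the list's median difference was -0.10. Sdc2, which encodes the heparan sulfate proteoglycan syndecan-2, was at log2 levels of 12.79 and 12.64 in 4T1OE tumours, against 9.03 and 8.99 in 4T1OE-CTL tumours (difference 3.71, SE 0.641, adjusted p = 0.0351). It was the called gene among 10 syndecans and glypicans.

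Npnt encodes nephronectin, a basement membrane protein and ligand of the integrin alpha 8 beta 1, and Itga8 encodes the alpha 8 subunit of that receptor. Npnt was at log2 levels of 12.14 and 12.61 in 4T1OE tumours, against 10.19 and 7.87 in 4T1OE-CTL tumours (difference 3.35, SE 0.620, adjusted p = 0.0410), and the difference was 2.19 without 4T1OE-CTL replicate 2 and 4.51 without 4T1OE-CTL replicate 1. Itga8 was at log2 levels of 5.72 and 5.76 in 4T1OE tumours, against 7.76 and 8.02 in 4T1OE-CTL tumours (difference -2.15, SE 0.257, adjusted p = 0.0143). Ligand and receptor subunit thus moved in opposite directions. Itga8 was low in all 4T1OE and parental arrays, at 6.49 or under, and high in the 4 4T1OE-CTL arrays, at 7.52 to 8.02. Itga6, the alpha 6 subunit of laminin receptors, was at log2 levels of 14.90 and 14.78 in 4T1OE tumours, against 12.29 and 12.54 in 4T1OE-CTL tumours (difference 2.42, SE 0.321, adjusted p = 0.0208). Of 29 integrins and basement membrane ligands, 2 were called higher and 1 lower, and the median difference was 0.59.

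Milk genes were called in either direction. Csn3 encodes kappa-casein and was at log2 levels of 9.55 and 10.69 in 4T1OE tumours, against 5.17 and 7.40 in 4T1OE-CTL tumours (difference 3.83, SE 0.728, adjusted p = 0.0427). Leaving out 1 array put the Csn3 difference between 2.72 and 4.95. Wap encodes whey acidic protein. Its 4T1OE values of 4.75 and 4.78 were under the negative control medians, against 6.58 and 6.49 in 4T1OE-CTL tumours, so its difference is a bound of -1.21 or further from 0 (adjusted p = 0.0441). The other 19 of 21 milk protein and mammary secretory genes were not called, and the median was -0.04. Mest, an imprinted gene of growing tissues, was at log2 levels of 12.08 and 10.87 in 4T1OE tumours, against 9.14 and 7.30 in 4T1OE-CTL tumours (difference 3.26, SE 0.637, adjusted p = 0.0455). Igf2r, also imprinted and the receptor that carries IGF2 and lysosomal enzymes to lysosomes, had a log2 difference of 1.95 (adjusted p = 0.0473). These were 2 of 14 imprinted growth genes, of which 10 had a negative difference, and the median of the list was -0.15. On all 4 arrays 8 of the 14 lay under the negative control medians. Leaving out 1 array put the Mest difference between 2.34 and 4.17.

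The macrophage genes Fcrls, Folr2 and Cbr2 were higher in 4T1OE tumours. Fcrls encodes a scavenger receptor-like protein of mouse microglia and macrophages. Log2 levels were 13.16 and 11.73 in 4T1OE tumours, against 7.54 and 7.76 in 4T1OE-CTL tumours. Parental values lay between, at 8.75 to 11.51 on the fitted arrays. The log2 difference was 4.79 (SE 0.817, adjusted p = 0.0343), a fold of 27.7, and it was 4.15 in WT hosts. Folr2 encodes the folate receptor beta of tissue macrophages. It was at log2 levels of 10.14 and 9.31 in 4T1OE tumours, against 6.68 and 6.47 in 4T1OE-CTL tumours (difference 3.15, SE 0.615, adjusted p = 0.0455). Cbr2, a carbonyl reductase gene, was at log2 levels of 11.17 and 9.52 in 4T1OE tumours, against 7.64 and 7.04 in 4T1OE-CTL tumours (difference 3.01, SE 0.556, adjusted p = 0.0410). Of 28 resident macrophage markers 3 were called, all higher, 26 had a positive difference and 22 did not overlap with 4T1OE higher. Over all 22206 features, 10283 had a positive difference and 27.2% did not overlap with 4T1OE higher. The median difference of the list was 1.33, and 1.52 in WT hosts. In these bulk tumours more macrophages in the 4T1OE tumours and more RNA per macrophage cannot be told apart. The macrophage list deviated by 0.82 and 0.39 on the 4T1OE arrays and by -0.52 and -1.01 on the 4T1OE-CTL arrays, which also had the lower array standard deviation. In the fit with that covariate the list's median was -0.08, so the direction of the macrophage list did not hold there.

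Monocyte genes were called in both directions. Plac8, a gene of myeloid and lymphoid cells that is also known from tumour epithelia, was at log2 levels of 10.03 and 9.52 in 4T1OE tumours, against 12.77 and 12.05 in 4T1OE-CTL tumours. The parental tumours lay lowest, at 6.65 to 8.63, so the 4T1OE-CTL tumours were the high group. The log2 difference was -2.63 (SE 0.372, adjusted p = 0.0239). Ccr2, the receptor that draws monocytes from the blood to tissue, was at log2 levels of 11.87 and 11.99 in 4T1OE tumours, against 9.94 and 9.13 in 4T1OE-CTL tumours (difference 2.39, SE 0.445, adjusted p = 0.0410). Ace encodes the angiotensin-converting enzyme of endothelium and of some myeloid cells. Log2 levels were 13.02 and 12.95 in 4T1OE tumours, against 10.22 and 10.47 in 4T1OE-CTL tumours (difference 2.64, SE 0.350, adjusted p = 0.0208). The other 13 of 16 monocyte genes were not called, and the median was -0.09. Neutrophil and dendritic cell markers had 0 of 17 and 0 of 15 called in limma, and 0 and 1 reached an unadjusted p under 0.05.

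The list of lysosome, two-pore channel and autophagy genes held 3 called members of 30, all higher, with a median difference of 0.81. Of the 30, 26 had a positive difference, as had 10283 of all 22206 features. Npl encodes the lyase that breaks down free sialic acid, an enzyme of the cytosol and not of the lysosome itself. Log2 levels of Npl were 10.28 and 9.66 in 4T1OE tumours, against 7.02 and 6.07 in 4T1OE-CTL tumours (difference 3.42, SE 0.499, adjusted p = 0.0288). Tpcn1 encodes a two-pore cation channel of endosomes and lysosomes. It was at log2 levels of 10.90 and 10.66 in 4T1OE tumours, against 8.35 and 6.39 in 4T1OE-CTL tumours (difference 3.41, SE 0.593, adjusted p = 0.0355). Atg9a, which encodes the transmembrane autophagy protein ATG9A, was at log2 levels of 10.09 and 9.95 in 4T1OE tumours, against 8.42 and 8.21 in 4T1OE-CTL tumours (difference 1.71, SE 0.292, adjusted p = 0.0343). The lysosome list deviated by 0.27 and 0.04 on the 4T1OE arrays and by -0.69 and -0.72 on the 4T1OE-CTL arrays. Its median was 0.07 in the fit with the standard deviation covariate. Leaving out 1 array put the Tpcn1 difference between 2.43 and 4.39. Glmp, a lysosomal membrane glycoprotein gene outside the list, also rose, by 2.76 (adjusted p = 0.0314). Ei24, a p53-induced gene with a role in autophagy, rose by 1.52 (adjusted p = 0.0384) as the called gene among 24 of p53 and apoptosis.

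Fut8, Mgat2, Elovl6 and Lpcat2, which encode enzymes of glycans and lipids, were called higher. Fut8 adds the core fucose of N-glycans. It was at log2 levels of 14.72 and 14.31 in 4T1OE tumours, against 11.58 and 11.57 in 4T1OE-CTL tumours (difference 2.95, SE 0.287, adjusted p = 0.0141). Mgat2, which starts a branch of complex N-glycans, was at log2 levels of 12.96 and 11.94 in 4T1OE tumours, against 9.74 and 9.46 in 4T1OE-CTL tumours (difference 2.85, SE 0.506, adjusted p = 0.0384). Elovl6 encodes an elongase of long-chain fatty acids and was at log2 levels of 10.02 and 10.05 in 4T1OE tumours, against 7.61 and 7.87 in 4T1OE-CTL tumours (difference 2.29, SE 0.267, adjusted p = 0.0141). Replicates of Elovl6 lay close together in either line. Lpcat2, an acyltransferase gene of phospholipid remodelling, rose by 2.62 (adjusted p = 0.0211).

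Genes of signalling and transport completed the upper end. Chn1 encodes alpha-chimaerin, a GTPase-activating protein for Rac, and was at log2 levels of 10.10 and 9.93 in 4T1OE tumours, against 6.38 and 5.79 in 4T1OE-CTL tumours (difference 3.93, SE 0.438, adjusted p = 0.0141). The Nlrx1-/- parental tumours were at 10.23, close to the 4T1OE tumours. Neo1 encodes neogenin, a receptor for netrins and repulsive guidance molecules, and was at log2 levels of 13.83 and 13.76 in 4T1OE tumours, against 10.62 and 10.97 in 4T1OE-CTL tumours (difference 3.00, SE 0.394, adjusted p = 0.0208). Fzd2, a Wnt receptor gene, was at log2 levels of 9.89 and 9.66 in 4T1OE tumours, against 7.87 and 7.23 in 4T1OE-CTL tumours (difference 2.23, SE 0.344, adjusted p = 0.0312). Mapk13, the p38 delta kinase gene, had 4T1OE-CTL values of 5.60 and 5.47 under the negative control medians, so its difference is at least 2.53 (adjusted p = 0.0291). The nucleoside transporter gene Slc29a1 rose by 2.76 (adjusted p = 0.0239) and Cda, the cytidine deaminase gene, by 2.70 (adjusted p = 0.0399). The membrane protein gene Mfsd6 rose by 3.08, Etl4 by 2.87, the chaperone gene Bag6 by 2.81 and the tetraspanin gene Tspan5 by 2.80. The heat shock gene Hspa4l rose by 2.70, Jmjd8 by 2.68 and the acetylcholine receptor subunit gene Chrnb1 by 2.67, with limma adjusted p-values of 0.0141 to 0.0384 over these 7 genes. All 7 had both 4T1OE values above both 4T1OE-CTL values.

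Mgst1 and Tslp had the lowest called differences among genes with a symbol. Mgst1 encodes a microsomal glutathione transferase. The 4T1OE arrays gave log2 levels of 10.15 and 10.80, against 13.04 and 13.47 on the 4T1OE-CTL arrays (difference -2.77, SE 0.334, adjusted p = 0.0143). Gstp1, a cytosolic glutathione transferase gene, moved the other way, with log2 levels of 11.62 and 11.48 in 4T1OE tumours, against 9.49 and 9.45 in 4T1OE-CTL tumours (difference 2.08, SE 0.316, adjusted p = 0.0299). They were the called genes among 31 glutathione and antioxidant genes, whose median was 0.44. Tslp encodes an epithelial alarmin cytokine and was at log2 levels of 9.92 and 10.18 in 4T1OE tumours, against 12.48 and 13.08 in 4T1OE-CTL tumours (difference -2.73, SE 0.348, adjusted p = 0.0186). Parental values of Tslp, 11.31 to 11.45, lay between the lines. It was the called gene among 10 epithelial alarmins and receptors.

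The complement genes C1s1 and C4b were lower. C1s1 encodes the C1s protease and was at log2 levels of 7.61 and 7.08 in 4T1OE tumours, against 9.61 and 9.998 in 4T1OE-CTL tumours (difference -2.46, SE 0.416, adjusted p = 0.0343). C4b, a gene of complement component C4, was at log2 levels of 9.12 and 9.53 in 4T1OE tumours, against 11.03 and 11.89 in 4T1OE-CTL tumours (difference -2.14, SE 0.409, adjusted p = 0.0435). Both have a near-identical copy, C1s2 and C4a, and signal shared between copies was not separated here. The copies had log2 differences of -1.81 (adjusted p = 0.0539) and -1.74 (adjusted p = 0.0622). Of 22 complement genes these 2 were called, both lower, and the median difference was -0.47. C1qb, a subunit of C1q made by macrophages, had a log2 difference of 2.33 (adjusted p = 0.118), opposite in sign to the C1s and C4 genes.

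Interferon-responsive genes held 1 call. Herc6, the ISG15 ligase of the mouse, was at log2 levels of 10.22 and 10.78 in 4T1OE tumours, against 12.56 and 11.85 in 4T1OE-CTL tumours (difference -1.71, SE 0.326, adjusted p = 0.0435), and the difference was -1.07 without both replicate 1 arrays. Of 33 type I interferon response genes it was the called one, and the median was -0.58. A negative difference was found for 28 of the 33 and for 11923 of all 22206 features. The list deviated by 0.07 and 0.00 on the 4T1OE arrays and by 0.96 and 0.32 on the 4T1OE-CTL arrays. For 11 of the 33 all 4 4T1OE-CTL arrays, of both hosts, lay above the other 7 arrays, as they did for 324 of all 22206 features. H2-T22, a non-classical MHC class I gene, was at log2 levels of 9.65 and 9.73 in 4T1OE tumours, against 11.71 and 11.18 in 4T1OE-CTL tumours (difference -1.75, SE 0.317, adjusted p = 0.0403). Apol10b, an apolipoprotein L family gene, was at log2 levels of 7.45 and 7.55 in 4T1OE tumours, against 8.96 and 9.12 in 4T1OE-CTL tumours (difference -1.54, SE 0.264, adjusted p = 0.0343). Tapbp, which encodes tapasin of the peptide-loading complex, was called the other way, with a log2 difference of 1.78 (adjusted p = 0.0366), as the called gene among 24 of antigen presentation. The median of that list was -0.06, the same as over all features.

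The promoter windows of Apol10b and H2-T22 are shown because they held the core of the interferon-stimulated response element, that is GAAA and again GAAA with any 2 bases between them, searched on both strands and shown in capitals. They span chr15:77596076-77596375 for Apol10b and chr17:36042693-36042992 for H2-T22, both on the minus strand of GRCm38.p6 in RefSeq.
Apol10b: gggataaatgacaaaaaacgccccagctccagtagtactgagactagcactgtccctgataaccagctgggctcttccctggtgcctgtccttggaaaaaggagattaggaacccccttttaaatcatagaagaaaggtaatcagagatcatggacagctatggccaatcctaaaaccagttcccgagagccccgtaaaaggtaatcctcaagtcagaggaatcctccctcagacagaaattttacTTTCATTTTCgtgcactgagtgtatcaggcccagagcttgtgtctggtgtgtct
H2-T22: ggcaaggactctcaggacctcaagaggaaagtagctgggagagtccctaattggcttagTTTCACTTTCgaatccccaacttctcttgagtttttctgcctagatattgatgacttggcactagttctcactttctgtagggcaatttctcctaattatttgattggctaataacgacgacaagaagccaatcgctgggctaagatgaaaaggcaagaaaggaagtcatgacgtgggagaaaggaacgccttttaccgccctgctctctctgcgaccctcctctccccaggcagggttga
The core stood in 2 of the 14 called-lower genes with a promoter in the table (14.3%), in 3 of the 176 called-higher genes (1.70%) and in 618 of 15691 genes overall (3.94%). The promoter of Herc6 in the table held none. These matches are letters in a window and not sites of binding.

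The remaining genes called lower were dim. Gm5797 had a log2 difference of -1.87, the stress peptide gene Ucn one of -1.83, the tubulin-binding protein gene Tppp one of -1.68, with limma adjusted p-values of 0.0425 to 0.0473. Dydc1 was also called (adjusted p = 0.0415), but its values of 3.86 and 3.89 in 4T1OE tumours and of 5.06 and 5.27 in 4T1OE-CTL tumours all lay under the negative control medians, so it is given no difference. Slc26a5, the prestin gene, had 4T1OE values under the negative control medians and a bound of -0.24 (adjusted p = 0.0435). Their 4T1OE-CTL values lay between 5.06 and 7.96. The lowest differences of all belonged to called features without a gene symbol. Feature TC0200001798.mm.2 was at log2 levels of 11.73 and 11.79 in 4T1OE tumours, against 16.53 and 16.59 in 4T1OE-CTL tumours (difference -4.80, SE 0.549, adjusted p = 0.0141). Feature TC1500001728.mm.2 was at log2 levels of 11.70 and 11.11 in 4T1OE tumours, against 14.26 and 15.02 in 4T1OE-CTL tumours (difference -3.24, SE 0.371, adjusted p = 0.0141). Both are named because of their values.

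Several lists had no called member although their genes leaned to 1 side. Over all 22206 features, 2925 had an unadjusted limma p under 0.05 with 4T1OE higher and 1686 with 4T1OE lower. Mitotic and S phase genes had 0 of 28 called in limma, 10 at an unadjusted p under 0.05 and a median difference of 0.53. The smallest p among them was that of Kif20a, a kinesin gene of cytokinesis, with log2 levels of 10.43 and 10.72 in 4T1OE tumours and of 8.89 and 8.99 in 4T1OE-CTL tumours (difference 1.64, adjusted p = 0.0574). Genes of oxidative phosphorylation had 0 of 44 called in limma, 8 at an unadjusted p under 0.05, all higher, and a median of 0.36. Among them Sdhd, a subunit gene of complex II, had a log2 difference of 1.72 (adjusted p = 0.0525). In the fit with the standard deviation covariate these medians turned to -0.22 and -0.45. Glycolysis and hypoxia genes had a median of 0.68 with 0 of 27 called in limma and 10 at an unadjusted p under 0.05, 9 higher and 1 lower. Endothelial markers had a median of 0.49 with 0 of 19 called and 7 at an unadjusted p under 0.05, 6 higher and 1 lower. Flt1, a VEGF receptor gene, had a log2 difference of 1.69 (adjusted p = 0.0694).

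On the lower side, guanylate-binding protein and immunity-related GTPase genes had a median difference of -0.89 with 0 of 12 called in limma and 4 at an unadjusted p under 0.05. Gvin1, an interferon-inducible GTPase gene, had a log2 difference of -1.35 (adjusted p = 0.107), and Tgtp2 one of -1.56 (adjusted p = 0.129). The median of this list was -0.02 without the replicate 1 arrays of both lines and 0.02 with the standard deviation covariate. Cytotoxic and NK cell genes had a median of -0.37 with 0 of 17 called in limma and 5 at an unadjusted p under 0.05. Gzmb, the granzyme B gene, was at log2 levels of 7.04 and 8.21 in 4T1OE tumours and of 10.38 and 9.81 in 4T1OE-CTL tumours (difference -2.47, adjusted p = 0.0795). Immune checkpoint genes had 0 of 18 called in limma, 5 at an unadjusted p under 0.05 (1 higher and 4 lower) and a median of -0.34. Genes of NF-kB and inflammatory cytokines had a median of -0.14, which was 0.44 with the standard deviation covariate, so this list had no settled direction. It held 1 call among 30, Il23a, the p19 subunit of interleukin 23, with a log2 difference of 1.84 (adjusted p = 0.0460). At an unadjusted limma p under 0.05, 6 of the 30 were higher and 2 lower.

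**Figure D3:**
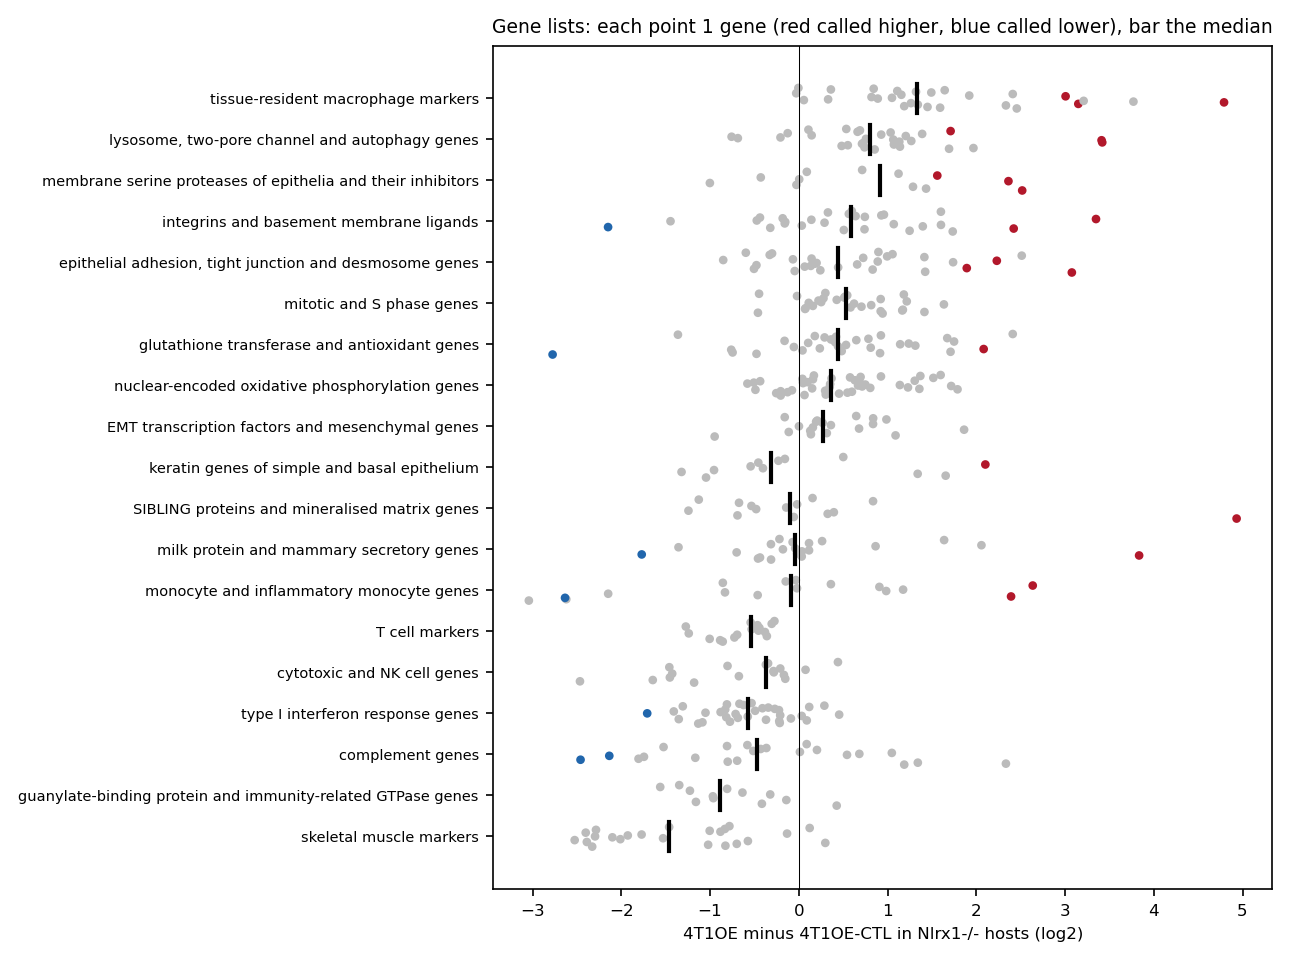
Log2 difference, 4T1OE minus 4T1OE-CTL in Nlrx1-/- hosts (x axis), of each measured gene in 19 gene lists (rows), with called genes in red (higher) or blue (lower) and the list's median as a bar. The macrophage median is the highest, at 1.33, and the skeletal muscle median the lowest, at -1.46, without a called muscle gene; with the standard deviation covariate they were -0.08 and 0.66.

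Markers of other tissues differed between the replicates of a line. B cell genes deviated by 2.91 and 0.00 on the 4T1OE arrays and by 4.06 and 0.00 on the 4T1OE-CTL arrays, and genes of lymph node stroma and homing by 2.46 and -0.17 in 4T1OE and by 2.72 and 0.52 in 4T1OE-CTL tumours. Replicate 1 of both lines was thus the high array. Cd79a, a subunit gene of the B cell receptor, was at log2 levels of 9.72 and 3.46 in 4T1OE tumours and of 11.23 and 3.92 in 4T1OE-CTL tumours. Skeletal muscle genes deviated by 0.00 and -0.29 on the 4T1OE arrays and by 0.00 and 1.97 on the 4T1OE-CTL arrays. Myh4, a fast myosin gene, was at log2 levels of 5.71 and 4.79 in 4T1OE tumours and of 4.83 and 10.46 in 4T1OE-CTL tumours, so that muscle genes were high on 1 of the 4 arrays. No gene of the B cell, lymph node, T cell or muscle lists was called in limma, among 15, 12, 16 and 23 genes, and 0, 1, 0 and 1 reached an unadjusted p under 0.05. All 16 T cell markers had a negative difference, with a median of -0.54, but the median was 0.56 without 4T1OE-CTL replicate 1, so its direction rested on that array. With the lymph node deviation as a covariate, a fit added after the data were seen, 339 features were called, 299 higher and 40 lower, and 236 of the 265 calls remained. Without both replicate 1 arrays, also added later, no feature was called in limma, 3773 reached an unadjusted p under 0.05, and the log2 differences were 4.68 for Nlrx1, 2.88 for Cdh1 and -2.53 for Plac8. The part of lymph node and muscle RNA in the other differences was not tested.

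**Figure D4:**
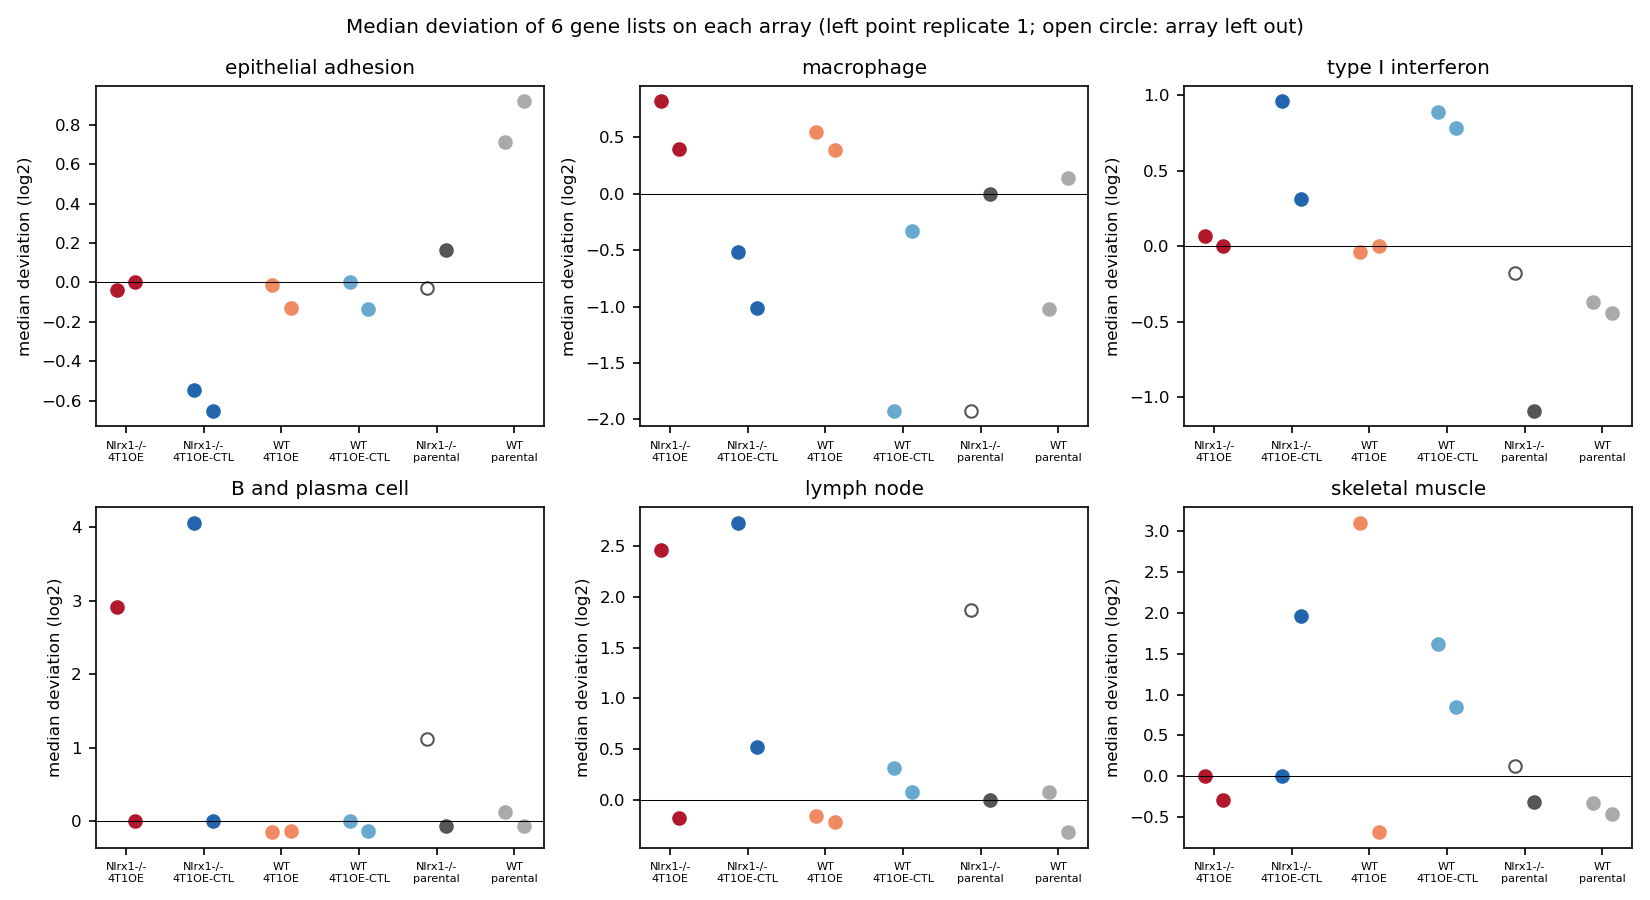
Median deviation, on the log2 scale, of 6 gene lists from each gene's median over the fitted arrays (y axes) on each of the 12 arrays by host and line (x axes). The epithelial list is lowest on both 4T1OE-CTL arrays of Nlrx1-/- hosts, and the B cell and lymph node lists are high on replicate 1 of both lines in these hosts. The muscle list is high on 4T1OE-CTL replicate 2 of these hosts, at 1.97. In WT hosts it is also high on replicate 1 of 4T1OE, at 3.10, and of 4T1OE-CTL, at 1.62.

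The same line comparison in WT hosts shares no array with that in Nlrx1-/- hosts. Of the 244 features called higher in Nlrx1-/- hosts 239 had a positive difference in WT hosts, and all 21 called lower had a negative difference there. The share of all features with the same sign in both hosts was not counted, so these counts have no background beside them. The features called higher had a median difference of 1.89 in Nlrx1-/- hosts and of 0.90 in WT hosts. Those called lower had medians of -1.87 in Nlrx1-/- hosts and of -1.69 in WT hosts. As the features were chosen for a large difference in Nlrx1-/- hosts, a smaller median in WT hosts is partly built in. Whether the difference was larger in Nlrx1-/- than in WT hosts was tested gene by gene as an interaction. In limma 0 features passed, the smallest adjusted p was 0.999, and 726 features (3.27%) had an unadjusted p under 0.05. Of the 265 called features 120 were among them. The difference that chose these features is itself a part of the interaction, so a large share is partly built in and is no test.

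The smallest interaction p-values with a positive sign belonged to Elovl6, Kctd15, Fzd2, Cdh1 and St14. Elovl6 differed by 2.29 in Nlrx1-/- hosts and by 0.16 in WT hosts, an interaction of 2.13 on the log2 scale (SE 0.378, unadjusted p = 0.000233). Cdh1 differed by 3.08 in Nlrx1-/- hosts and by 0.25 in WT hosts, an interaction of 2.82 (SE 0.592, unadjusted p = 0.000806). St14 differed by 2.52 in Nlrx1-/- hosts and by 0.23 in WT hosts, an interaction of 2.28 (SE 0.483, unadjusted p = 0.000850). For these genes the 4T1OE values of both hosts lay close together and the 4T1OE-CTL values were lower in Nlrx1-/- hosts. Fzd2 had an interaction of 2.37 (unadjusted p = 0.000702), and Kctd15, which was not called in Nlrx1-/- hosts and whose 4T1OE-CTL values there lay under the negative control medians, had an unadjusted p of 0.000521. With a negative sign they belonged to Nts, Gm9696, Defb45, 4930470P17Rik and Insrr, none of them called in Nlrx1-/- hosts. The neurotensin gene Nts (unadjusted p = 0.000313) was at log2 levels of 4.75 and 5.18 in 4T1OE and of 6.25 and 6.56 in 4T1OE-CTL tumours of Nlrx1-/- hosts, and of 5.77 and 6.27 in 4T1OE and of 5.28 and 4.61 in 4T1OE-CTL tumours of WT hosts. Since 2 of these 4 groups lay under the negative control medians, no size is given for it. Nlrx1 differed by 4.11 in Nlrx1-/- hosts and by 2.66 in WT hosts (adjusted p = 0.0921 there), an interaction of 1.45 (SE 0.576, unadjusted p = 0.0307). None of these values passed after adjustment.

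By list, the adhesion genes had a median difference of 0.44 in Nlrx1-/- hosts and of 0.06 in WT hosts, and the membrane proteases one of 0.92 in Nlrx1-/- hosts and of -0.15 in WT hosts. The macrophage list had nearly the same median in both hosts. Type I interferon genes had medians of -0.58 in Nlrx1-/- hosts and of -0.97 in WT hosts, and the guanylate-binding protein and immunity-related GTPase genes of -0.89 in Nlrx1-/- hosts and of -2.11 in WT hosts. All 12 genes of that GTPase list had a positive interaction, 7 of them at an unadjusted limma p under 0.05, and none passed after adjustment. Over all 22206 features, 11242 had a positive interaction and 726 (3.27%) had an unadjusted p under 0.05 in either direction. The list deviated by -0.41 and 0.35 on the 4T1OE arrays and by 0.94 and 0.59 on the 4T1OE-CTL arrays of Nlrx1-/- hosts, and by -0.05 and 0.00 on the 4T1OE arrays and by 2.50 and 1.70 on the 4T1OE-CTL arrays of WT hosts. It was thus highest in the 4T1OE-CTL tumours of WT hosts.

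**Figure D5:**
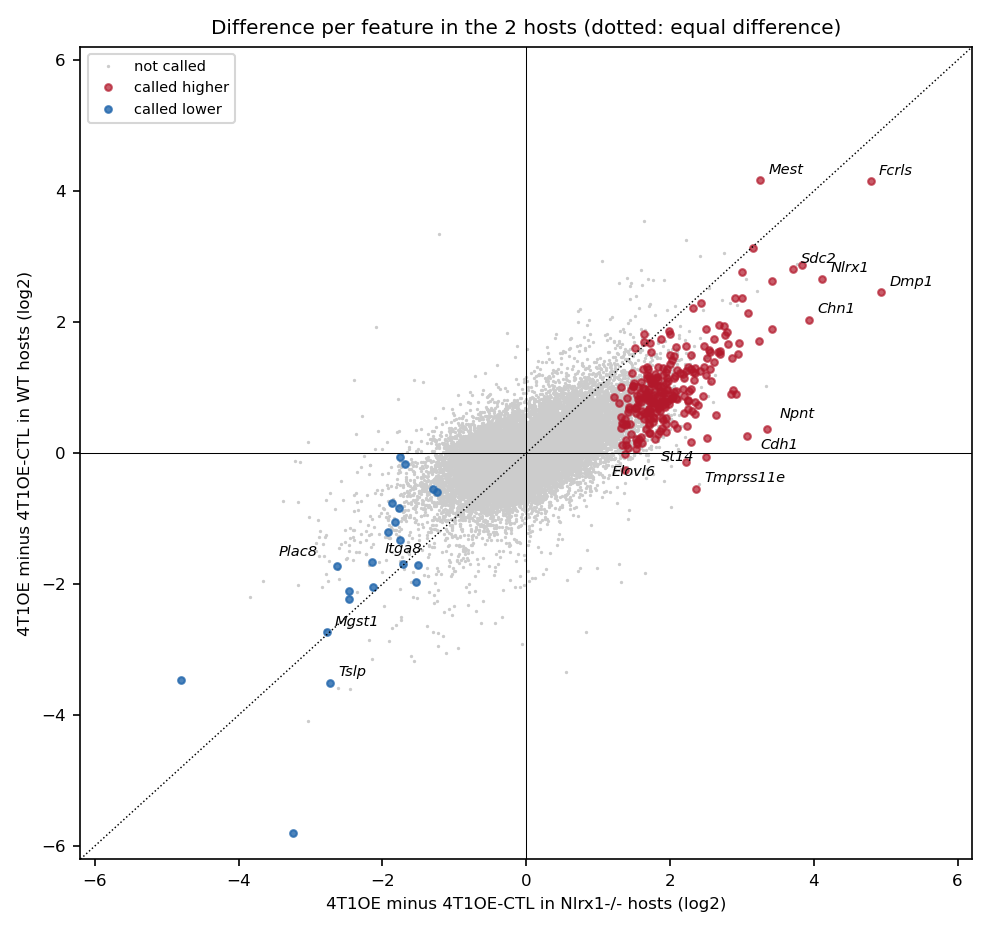
Log2 difference of each of the 22206 features, 4T1OE minus 4T1OE-CTL, in Nlrx1-/- hosts (x axis) and in WT hosts (y axis), with features called in Nlrx1-/- hosts in red (higher) or blue (lower) and a dotted line of equal difference. Most red points lie under the dotted line, near a difference of 1 in WT hosts, while Cdh1, St14, Npnt and Tmprss11e lie between -0.54 and 0.37 there and Mgst1 lies on the line.

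The called features can also be placed among all 11 fitted arrays. Of the 244 called higher, 198 had both 4T1OE-CTL arrays of Nlrx1-/- hosts as the lowest of the 11, against 1498 of all 22206 features, and 32 had both 4T1OE arrays of these hosts as the highest, against 427. For 83 all 4 4T1OE arrays lay above the other 7, Nlrx1, Csn3, Npl, Folr2, Cbr2, Neo1 and Itga6 among them. For 106 all 4 4T1OE-CTL arrays lay below the other 7, among them Dmp1, Fcrls, Chn1, Npnt and Mest. Of the 21 called lower, 13 had all 4 4T1OE-CTL arrays above the other 7, among them Mgst1, Tslp, Plac8, C1s1, C4b, Itga8, Casp1, Herc6, H2-T22 and Apol10b, and 8 had all 4 4T1OE arrays below the other 7. The calls chose the arrays that stand apart, so these counts describe the called features and are no test. Among the features called higher, the 4T1OE-CTL arrays of Nlrx1-/- hosts were mostly the lowest of the 11, which the choice of features itself favours. These arrays also had a narrower spread of values than the 4T1OE arrays. The part of that narrower spread in each difference was not tested beyond the covariate fit.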

How the data were processed

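Clariom S arrays of RNA pooled from flash-frozen tumours were run by the manufacturer's service, per the labels. The authors deposited 1 log2 expression value per feature and array, made with Transcriptome Analysis Console per the submitters' processing notes. Background correction, normalization and genome build were not given in the sources used here. Of 28846 features, 6640 manufacturer's controls were removed and 22206 tested, 19572 of them with a gene symbol in the platform annotation. The brightest feature stood for a gene with several. An array without values was not used, and no pair of arrays held identical values.

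The deposited log2 values were fitted in limma 3.58.1 (R 4.3.3) with 1 mean per group over 11 arrays, leaving 5 residual degrees of freedom, and the procedure was tested on simulated data. Parental Nlrx1-/- replicate 1 was left out because its own label advises against its use. P-values were adjusted by Benjamini-Hochberg over all features, with a threshold of 0.05. Where both arrays of a line lay under the median of 5222 negative control features of their own array, the difference is given as a bound.

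Named genes were Nlrx1, Dmp1, Cdh1 and Plac8, the 30 largest called rises, all called falls, called members of described lists, up to 4 members with the smallest p of a list without calls, and 5 genes of either sign with the smallest interaction p. The other genes named were picked for their role with their values known. The comparison, its markers and the 42 gene lists (845 of 922 entries measured) were chosen with earlier results of these data known. A list's deviation was computed per array, as the median distance of its genes from their own medians across the 11 arrays. The alternatives tried are given in the closing section.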

Additional observations from a re-analysis of the deposited data

How the results depend on the processing

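The count of 265 called features moved to 57 after quantile normalization (45 higher, 12 lower), to 576 with arrays centred on their medians (545 higher, 31 lower), to 419 with the dimmest features left out (374 higher, 45 lower), to 361 with array weights and to 266 with a trended, robust variance. It was 1 in each of the fits that kept all 12 arrays, that held the 4 compared arrays alone, and that took the array standard deviation as covariate, and 2667 at an unadjusted p under 0.05 with a fold of 2 or more. Leaving out 1 array gave 0 to 1341 calls. There were 0 without 4T1OE replicate 1 or 2 or 4T1OE-CTL replicate 2 of Nlrx1-/- hosts (2394 to 3015 at an unadjusted p under 0.05), 1341 without 4T1OE-CTL replicate 1 (884 higher, 457 lower), 15 without either 4T1OE array of WT hosts and 208 without either 4T1OE-CTL array of WT hosts. Chosen after seeing the data, a fit without both arrays high in lymph node genes called 0 (3773 at an unadjusted p under 0.05), and 1 with the lymph node deviation as a covariate called 339. The cause of these changes was not tested. Of the 265, 264 were still called after centring, 56 after quantile normalization and 236 without 4T1OE-CTL replicate 1, and all that a fit held kept their sign in it (264 with the dimmest features left out, 265 otherwise). In most of these fits the sign could not turn, as the compared groups did not overlap or the difference stayed as it was. Centring raised the median difference of all features from -0.06 to 0.10.

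Nlrx1 kept its direction throughout, which most of these fits could not have turned. Its difference was 4.115 with the compared groups alone (adjusted p = 0.0928), 3.556 with the standard deviation covariate (adjusted p = 0.410), 4.684 without both arrays high in lymph node genes (adjusted p = 0.117) and 3.747 to 4.483 with 1 array left out (adjusted p = 0.0181 to 0.201). Over all alternatives its adjusted p ranged from 0.00829 to 0.410. The interaction had 0 calls in every limma fit, with 223 to 2097 features at an unadjusted p under 0.05, and 571 at an unadjusted p under 0.05 with a fold of 2 or more. Of 1177 alternative values of the 62 called genes that are named, 652 were no longer called. None changed sign, which most of these fits could not bring about. With the titles' replicate number as a replicate block 57 features were called (49 higher, 8 lower) and Nlrx1 was called (4.115, adjusted p = 0.0275). The numbers were not taken to pair the arrays, since the deviations of same-numbered arrays correlated at -0.31 to 0.37 over the pairs of groups, with 0.37 between the 4T1OE and 4T1OE-CTL groups of Nlrx1-/- hosts. Under the block Dmp1 was not called (adjusted p = 0.0572). The number of arrays limits the precision.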
